A study of Saccharomyces cerevisiae with 6 samples.

Results

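The genes described here are 60 ribosome biogenesis factors of *Saccharomyces cerevisiae*, nucleolar proteins that assemble ribosomal subunits and are named UTP, NOP, RRP, NOC, NSA, IMP and the like. They were chosen by name from the 6442 genes in the count and FPKM tables, not by their values, and all 60 were present and passed the filter on low counts. RNA was sequenced from S3 (yJBH012), a haploid strain obtained by SCRaMbLE, the Cre-driven rearrangement of a synthetic chromosome at its loxPsym sites, and from H0 (yJBH000), its parent, in 3 libraries of each. Both strains carry synV, the synthetic version of chromosome V, and a carotenoid pathway with a LEU2 marker at the CAN1 locus, and both were grown in flasks for 12 h at 30 °C. S3 differs from H0 by the deletion of YEL014C and VAC8, as far as the study describes it, and it is 1 isolate. The labels call the groups only S3 and H0 and give the same genotype for all 6 libraries. The strain names follow from the paper, which describes the transcriptomes of no other strain.

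Ribosome assembly begins in the nucleolus, where RNA polymerase I makes a long ribosomal RNA precursor. The UTPA, UTPB, Mpp10 and UTPC complexes and the U3 snoRNP settle on the precursor as it is made and form the small subunit processome. Other factors cleave, fold and modify the part that becomes the large subunit, and most of them leave before the subunits reach the cytoplasm. In growing yeast these genes are switched on and off together, and the promoters of many share a pair of short elements called PAC and RRPE.

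VAC8, one of the deleted genes, had 0, 0 and 1 reads in the S3 libraries, against 2532, 2473 and 2216 reads in the H0 libraries. The S3 libraries thus match a strain with this deletion, which the paper reports in yJBH012 and in other sequenced isolates. Total counts ran from 17675299 to 21568860 in S3 and from 23340054 to 25333938 in H0, and every ribosome biogenesis factor had at least 430 reads in each library. H0 replicate 1 stood apart from its replicates. In a comparison of counts over all genes, its chi-square divided by the degrees of freedom was 83.2 and 85.4 against the other H0 libraries, while pairs of S3 libraries gave 11.8 to 14.5 and H0 replicates 2 and 3 gave 7.13. No 2 libraries were duplicates. Nothing in the labels says whether the replicates were separate cultures, so p-values measure the spread between these libraries, which may be technical. Values are relative levels in the RNA of a whole culture. In them, less RNA of a gene per cell and fewer cells with that RNA cannot be told apart.

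To print where the 2 promoter elements lie, the 250 bases before each start codon were searched on both strands for GATGAG (the core of PAC), GCGATGAG (a longer PAC form that contains the core) and AAAAATTT (the core of RRPE). PAC is the element that Dot6 and Tod6 bind, and RRPE is the element that Stb3 binds. The PAC core was found in 52 of the 60 promoters (86.7%), against 17.0% of the promoters of all 5998 protein-coding genes. The longer PAC form was found in 29 (48.3%), against 3.83% of all promoters. RRPE was found in 48 (80.0%), against 13.4%. Both the PAC core and RRPE were found in 41 (68.3%), against 4.98%. These shares are not particular to the 60. In 47 other large subunit assembly genes the PAC core was found in 91.5%, RRPE in 85.1% and both in 76.6%. In 44 other small subunit and snoRNP assembly genes the shares were 88.6%, 86.4% and 79.5%. The nearest PAC core began a median of 113.5 bases before the start codon and the nearest RRPE 130.5 bases before it.

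Promoter stretches are shown for the factors that hold both elements and had the 4 largest and the 4 smallest log2 fold changes among those that passed the test, because genes of opposite direction carried the same letters. They were chosen after their values were seen. Each runs 5′ to 3′ towards the gene, from 10 bases before the first match to 10 bases after the last, with the matches to the motifs or their reverse complements in capitals. Sequences and positions are from the R64 RefSeq assembly, and the strains may differ from it.
UTP20 (higher in S3, chrII:227416-227479, plus strand): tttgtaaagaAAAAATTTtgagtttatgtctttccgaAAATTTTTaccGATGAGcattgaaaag
UTP23 (higher in S3, chrXV:333471-333539, plus strand): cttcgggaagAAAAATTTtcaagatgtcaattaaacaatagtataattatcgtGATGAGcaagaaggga
UTP10 (higher in S3, chrX:217394-217436, minus strand): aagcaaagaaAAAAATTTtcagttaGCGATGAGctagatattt
RRP5 (higher in S3, chrXIII:731259-731310, minus strand): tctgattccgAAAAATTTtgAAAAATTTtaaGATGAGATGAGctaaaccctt
RRP14 (lower in S3, chrXI:282409-282502, minus strand): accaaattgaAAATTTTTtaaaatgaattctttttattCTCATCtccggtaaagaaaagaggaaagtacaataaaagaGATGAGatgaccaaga
UTP18 (lower in S3, chrX:312761-312802, minus strand): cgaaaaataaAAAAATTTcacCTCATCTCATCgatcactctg
RRP3 (lower in S3, chrVIII:229143-229255, minus strand): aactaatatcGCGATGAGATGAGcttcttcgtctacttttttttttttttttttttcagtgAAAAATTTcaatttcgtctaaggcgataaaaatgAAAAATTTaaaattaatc
NOP14 (lower in S3, chrIV:190663-190754, minus strand): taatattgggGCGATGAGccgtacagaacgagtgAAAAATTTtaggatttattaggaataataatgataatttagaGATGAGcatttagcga

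In all 4 of the promoters of genes higher in S3, RRPE lies further from the gene than PAC, and so it does for UTP18 and RRP14, whereas in RRP3 and NOP14 a PAC match lies further out than RRPE. Of the 41 factors with both elements, 18 were higher in S3, 6 were lower and 17 did not pass the test, where 34.2% of all genes were higher and 36.2% lower. Of the 11 with the PAC core alone, 1 was higher and 2 were lower. Of the 7 with RRPE alone, 2 were higher and 2 were lower. UTP22, which was higher in S3, had neither set of letters in this window. A match is a stretch of letters and not a measured binding site.

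To see how the 60 factors differed between the strains, all genes were fitted with edgeR's quasi-likelihood test and p-values were adjusted by Benjamini-Hochberg over the 5904 genes tested. At an adjusted p under 0.05, 22 factors were higher in S3, 10 were lower and 28 did not pass. Of all genes tested, 70.5% passed, 34.2% higher and 36.2% lower. Past 2-fold, 5 factors were higher (UTP20, UTP23, UTP10, RRP5 and UTP22) and 0 were lower with edgeR and with DESeq2, no fitted value being under -0.79, while 10.7% and 4.98% of all genes were higher and lower past 2-fold. The median log2 fold change was 0.20, from -0.79 for RRP14 to 1.94 for UTP20, against -0.01 over all genes. Overlap was read from counts scaled to library size with TMM factors, and it depends on that scaling. The libraries of the strains did not overlap for 32 factors, 24 with every S3 library above every H0 library and 8 below. Of all genes, 75.5% did not overlap, 36.9% above and 38.6% below.

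The balance of the calls depended on H0 replicate 1 and on the scaling, but the direction of no called factor did. Without H0 replicate 1, 23 factors were higher and 20 were lower, where 78.2% of all genes passed, 38.3% higher and 39.9% lower, and their median lay 0.06 above that of all genes in place of 0.21. Libraries were scaled by TMM factors, 0.885 to 0.897 in S3 and 1.11 to 1.14 in H0. With total counts alone, the median of all genes moved to -0.35 and 10 factors were higher and 22 lower, where 77.0% of all genes passed, 19.4% higher and 57.6% lower, while the median of the factors lay 0.21 above that of all genes as before. The factors with a positive value numbered 39 with TMM and 23 with total counts. With total counts 12 factors lost their call, all of them higher with TMM. They were UTP4, UTP5, UTP9, UTP21, NOP1, NOP58, IMP4, NOC4, NSR1, NOP7, RLP7 and NOP53. In 9 of the 22 higher and 6 of the 10 lower factors the call was made under all 17 alternatives run. The 9 were UTP10, UTP22, UTP20, UTP23, NOP9, RRP5, RRP12, NOP15 and RLP24, and the 6 were UTP15, UTP18, RRP7, RRP36, RRP3 and RRP14. The same count was not made over all genes, so these numbers cannot be set against a background share.

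**Figure D1:**
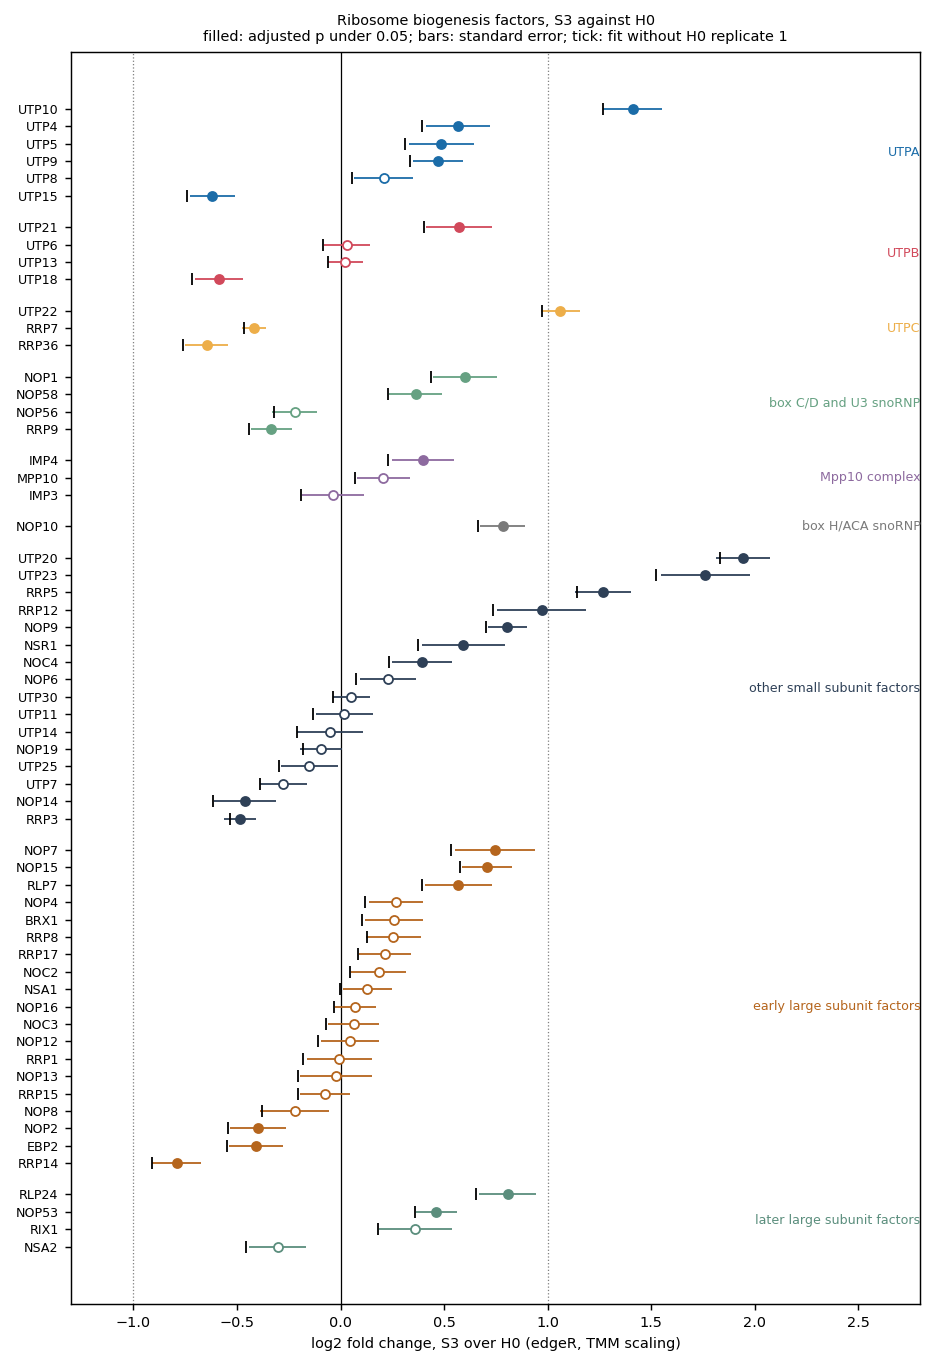
Log2 fold change of S3 over H0 (x axis) of the 60 ribosome biogenesis factors, grouped by role down the page, with standard errors as bars. Filled points passed an adjusted p of 0.05 and the vertical ticks give the fit without H0 replicate 1, which lies left of the point for all 60 factors. UTP20 at 1.94 is the furthest to the right and RRP14 at -0.79 the furthest to the left.

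UTPA is the first complex to bind the precursor, and of the 6 UTPA genes here 4 were higher in S3, 1 was lower and 1 did not pass. UTP10, a large protein built of helical repeats, had 242, 225 and 196 CPM in S3, against 65.9, 89.2 and 93.9 CPM in H0 (CPM, counts scaled to library size with TMM factors). Every S3 library was above every H0 library by a wide margin, with a log2 fold change of 1.41 ± 0.14 (SE, adjusted p = 8.92e-05). UTP15 had 78.0, 82.5 and 77.6 CPM in S3, against 101, 131 and 134 CPM in H0. All its S3 libraries were below all H0 libraries, and its log2 fold change was -0.62 ± 0.11 (SE, adjusted p = 0.00152). UTP5, the most abundant of the 6 per length, had 243, 225 and 226 CPM in S3, against 122, 184 and 189 CPM in H0, a log2 fold change of 0.49 ± 0.16 (SE, adjusted p = 0.0248). UTP4 and UTP9 were higher by 0.57 and 0.47 on the log2 scale (adjusted p = 0.0127 and 0.0094). UTP8 did not pass, at 0.21 (adjusted p = 0.230). UTP5 lost its call when any single S3 library was left out, and UTP4, UTP5 and UTP9 lost theirs with total counts.

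UTPB follows UTPA and holds the U3 snoRNP in place, and its 4 genes here did not move together. UTP21 had 142, 135 and 118 CPM in S3, against 66.5, 97.7 and 101 CPM in H0. It was higher in S3 by 0.57 ± 0.16 on the log2 scale (SE, adjusted p = 0.0134), with no overlap between the strains in TMM-scaled CPM. In the deposited FPKM, which carry no TMM factors, S3 replicate 3 at 37.0 was below H0 replicates 2 and 3 at 38.7 and 39.9. The call on UTP21 was lost with total counts, at 0.24 (adjusted p = 0.183). UTP18 had 93.9, 87.5 and 88.2 CPM in S3, against 110, 150.0 and 145 CPM in H0. UTP18 was also the most abundant of the 4 per length over the 6 libraries, and it was lower in S3 by a log2 fold change of -0.59 ± 0.12 (SE, adjusted p = 0.00286). UTP6 and UTP13 had log2 fold changes of 0.03 and 0.02 and did not pass.

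UTPC joins the processome later, and all 3 of its genes here passed, in opposite directions. UTP22 had 99.3, 108 and 96.5 CPM in S3, against 42.3, 52.1 and 51.2 CPM in H0. Its log2 fold change was 1.06 ± 0.09 (SE, adjusted p = 4.23e-05), and 0.97 without H0 replicate 1. RRP36 had 28.2, 29.2 and 28.7 CPM in S3, against 37.7, 49.1 and 48.0 CPM in H0, and RRP7, the most abundant of the 3 per length, had 143, 140.4 and 143 CPM in S3, against 177, 195 and 197 CPM in H0. Both were lower in every S3 library than in every H0 library, with log2 fold changes of -0.65 ± 0.11 and -0.42 ± 0.06 (SE, adjusted p = 0.00102 and 0.000459). The S3 libraries of RRP7 lay within 3 CPM of each other.

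Within a library, FPKM (fragments per kilobase of gene, scaled to library size) gives the level per length of the genes of a complex, and this comparison does not depend on how libraries were scaled against each other. Among the 4 UTPB genes on the list, the highest was 1.12, 1.12 and 1.18 times the lowest in the S3 libraries, against 2.61, 2.42 and 2.26 times in the H0 libraries. These 4 genes lay between 37.0 and 50.2 FPKM in all S3 libraries. PWP2, a UTPB gene outside the list, had 66.4, 68.2 and 58.2 FPKM in S3, against 49.6, 69.7 and 71.5 FPKM in H0. With PWP2 and DIP2 added, the ratio was 1.48, 1.59 and 1.57 in S3, against the same 2.61, 2.42 and 2.26 in H0, so part of the narrow S3 range came from which genes were on the list. In UTPA the ratio was 2.76, 2.75 and 3.18 in S3, against 5.27, 5.67 and 5.52 in H0, and NAN1, the UTPA gene outside the list, left these ratios as they were. In UTPC it was 5.96, 5.39 and 6.17 in S3, against 17.4, 15.6 and 16.0 in H0. In these 3 complexes the gene with the lowest FPKM in H0 was among those higher in S3, as UTP10, UTP21 and UTP22 were, and UTP15, UTP18, RRP7 and RRP36, with high or middle values in H0, were lower. UTP5, the highest of UTPA in H0 replicates 2 and 3, was called higher, as were UTP4 and UTP9. A rise of the lowest gene by itself narrows such a ratio. UTP10, UTP21 and UTP22 are also the longest listed genes of their complexes, at 5310, 2820 and 3714 bases. The part of length in these ratios was not tested. The 4 box C/D and U3 proteins on the list went the other way, with ratios of 19.0, 16.9 and 18.0 in S3, against 8.46, 9.31 and 10.2 in H0, NOP1 being the highest of the 4 and RRP9 the lowest in every library. SNU13, a core box C/D protein outside the list, exceeded NOP1 in S3 replicate 2, at 999 against 965 FPKM, and with it the ratio there was 17.5 and the others were as before. The Mpp10 complex also spread more widely in S3, with ratios of 1.26, 1.38 and 1.43, against 1.18, 1.09 and 1.10 in H0. The alternative with added genes was chosen after seeing the data. No test was made on these ratios.

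**Figure D2:**
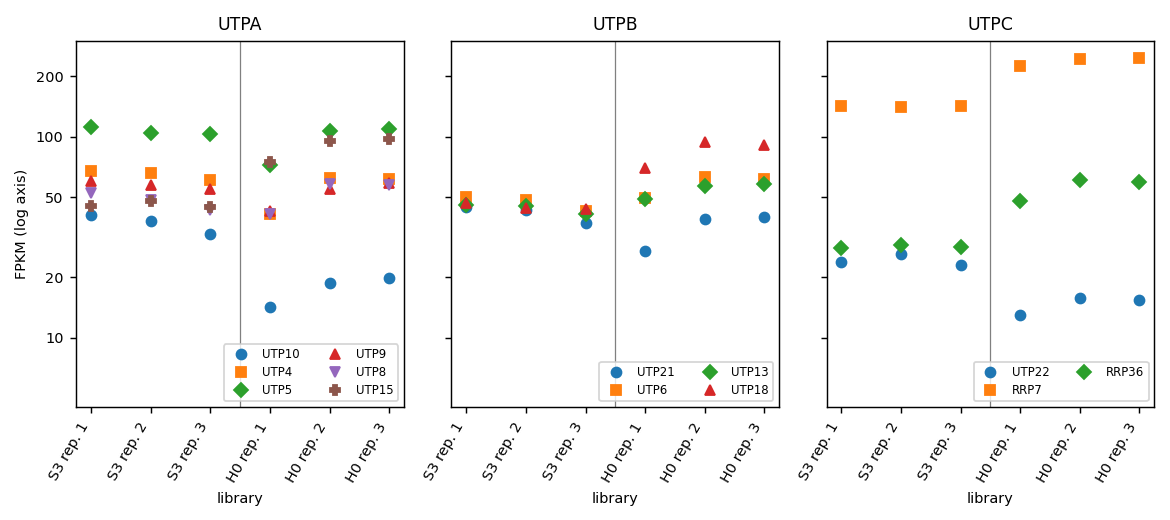
FPKM (log axis) of each gene of UTPA, UTPB and UTPC in the 3 S3 and 3 H0 libraries, each symbol being 1 gene. The 4 UTPB genes drawn, without PWP2 and DIP2, fall between 37.0 and 50.2 FPKM in S3, while in H0 UTP18 lies above and UTP21 below the other genes, and in UTPC UTP22 and RRP7 are closer together in S3.

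The box C/D proteins bind guide RNAs that direct methylation of ribosomal RNA, and U3 is one such particle with a role in cleavage. NOP1, the yeast fibrillarin and the methyltransferase of these particles, had 1218, 1059 and 1076 CPM in S3, against 562, 802 and 845 CPM in H0. All S3 libraries were above all H0 libraries, with a log2 fold change of 0.60 ± 0.16 (SE, adjusted p = 0.00962). The call on NOP1 was lost with total counts, at 0.27 (adjusted p = 0.128). RRP9, a protein of the U3 particle alone, had 112, 110 and 105 CPM in S3, against 116, 151 and 145 CPM in H0. Its S3 values lay just below the lowest H0 library, and its log2 fold change was -0.34 ± 0.10 (SE, adjusted p = 0.0177), a call lost without H0 replicate 2 or 3 or without S3 replicate 2 or 3. NOP58 was higher by 0.36 on the log2 scale (adjusted p = 0.0353), a call lost without S3 replicate 1 or 2, and its partner NOP56 did not pass, at -0.22 (adjusted p = 0.0988). NOP56 and NOP58 are related genes, with 78.8% identity over 113 bases and 69.9% over 289 bases, and how the authors' counting placed reads that fit both is not given in the sources used here.

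NOP10, the box H/ACA protein on the list, belongs to the particles that make pseudouridine. It had 262, 255 and 276 CPM in S3, against 127, 164 and 170 CPM in H0, and a log2 fold change of 0.78 ± 0.11 (SE, adjusted p = 0.000481). It is the shortest gene of the 60, at 177 bases, and the most abundant per length, at a mean of 1329 ± 43.4 FPKM in S3 and 973 ± 136 FPKM in H0 (SD, n = 3 each). After a trend of fold change with gene length was removed over all genes, its log2 fold change was 0.23 (adjusted p = 0.0867).

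The Mpp10 complex binds U3 and helps it pair with the precursor. IMP4 had 115, 115 and 108 CPM in S3, against 64.4, 98.2 and 94.0 CPM in H0, and IMP3 had 58.3, 52.9 and 47.4 CPM in S3, against 42.0, 60.9 and 59.9 CPM in H0. MPP10, the most abundant of the 3 per length, had 238, 226 and 207 CPM in S3, against 155, 214 and 212 CPM in H0. IMP4 alone passed, with a log2 fold change of 0.40 ± 0.15 (SE, adjusted p = 0.0448), and the strains overlapped for IMP3 and MPP10, whose log2 fold changes were -0.04 and 0.21 (adjusted p = 0.842 and 0.179). The call on IMP4 was lost when any single S3 library was left out.

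The remaining 16 small subunit factors held the furthest rises. UTP20, one of the longest proteins of the processome, had 155, 149.9 and 122 CPM in S3, against 31.2, 38.1 and 41.6 CPM in H0. With a log2 fold change of 1.94 ± 0.13 (SE, adjusted p = 1.54e-05) it was the highest of the 60. UTP23, a nuclease-fold protein tied to the release of a snoRNA, had 88.5, 83.7 and 77.9 CPM in S3, against 15.8, 28.6 and 29.4 CPM in H0. Even the highest H0 library had less than 30 CPM, and the log2 fold change was 1.76 ± 0.21 (SE, adjusted p = 0.000225). RRP5, which acts in both subunits and is among the earliest factors to bind, had 266, 264 and 218 CPM in S3, against 84.9, 108 and 118 CPM in H0, a log2 fold change of 1.27 ± 0.14 (SE, adjusted p = 0.000116). NSR1, the yeast nucleolin, was the most abundant of the 16 per length, with 729, 666 and 652 CPM in S3, against 304, 529 and 524 CPM in H0. Its H0 libraries were far apart, and its log2 fold change was 0.59 ± 0.20 (SE, adjusted p = 0.0309), a call lost when any single S3 library was left out and with total counts.

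RRP3, a DEAD-box helicase of the small subunit, was the lowest of these 16. It had 110, 107 and 94.3 CPM in S3, against 136, 152 and 148 CPM in H0, with no overlap and a log2 fold change of -0.49 ± 0.08 (SE, adjusted p = 0.000822). NOP14 was lower by -0.46 on the log2 scale (adjusted p = 0.0268), although S3 replicate 1 at 221 CPM was above H0 replicate 1 at 210 CPM, whereas NOC4, its binding partner, was higher by 0.39 (adjusted p = 0.0431). NOC4 was called in 9 of the 17 alternatives, not when any single S3 library was left out, and NOP14 in 12, not without H0 replicate 2 or 3 or S3 replicate 2 or 3. RRP12, an export factor, and NOP9, an RNA-binding protein, were higher by 0.97 and 0.81 (adjusted p = 0.00482 and 0.000164). The 7 that did not pass were UTP7 at -0.28, UTP11 at 0.02, UTP14 at -0.05, UTP25 at -0.15, UTP30 at 0.05, NOP6 at 0.23 and NOP19 at -0.10, all log2 fold changes.

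Of the 37 genes of the small subunit and the snoRNPs, 17 were higher in S3 and 7 were lower, where 34.2% and 36.2% of all genes were. Of the 23 large subunit genes, 5 were higher and 3 were lower, and none passed 2-fold in either direction. The median log2 fold change was 0.21 in the small subunit and snoRNP genes and 0.13 in the large subunit genes. Without H0 replicate 1 the small subunit and snoRNP genes had 17 higher, 12 lower and a median of 0.07, and the large subunit genes had 6 higher, 8 lower and a median of -0.003. In that fit 38.3% of all genes were higher and 39.9% lower. Whether these groups differ was not tested.

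Early large subunit factors bind the precursor in the nucleolus, and 13 of the 19 here did not pass. NOP7, the yeast homologue of pescadillo, had 434, 396 and 382 CPM in S3, against 166, 279 and 279 CPM in H0. All S3 libraries were above all H0 libraries, with a log2 fold change of 0.74 ± 0.19 (SE, adjusted p = 0.00976). RRP14 had 164, 162 and 145 CPM in S3, against 225, 306 and 285 CPM in H0, the furthest fall of the 60 at a log2 fold change of -0.79 ± 0.12 (SE, adjusted p = 0.000626). RLP7, a relative of a ribosomal protein and the most abundant of the 19 per length, had 284, 263 and 244 CPM in S3, against 132, 202 and 199 CPM in H0, a log2 fold change of 0.57 ± 0.16 (SE, adjusted p = 0.0144). NOP15 was higher by 0.71 (adjusted p = 0.00131), while EBP2 and NOP2, a methyltransferase of the large ribosomal RNA, were lower by -0.41 and -0.40 (adjusted p = 0.0232 and 0.0296). NOP2 overlapped between the strains, and both calls were lost without H0 replicate 2 or 3 or S3 replicate 2 or 3. With total counts the calls on NOP7 and RLP7 were lost, at 0.41 and 0.24 (adjusted p = 0.0735 and 0.191). The log2 fold changes of those that did not pass were NOP4 0.27, NOP8 -0.22, NOP12 0.04, NOP13 -0.02, NOP16 0.07, RRP1 -0.005, RRP8 0.25, RRP15 -0.07, RRP17 0.21, NOC2 0.18, NOC3 0.06, NSA1 0.13 and BRX1 0.26.

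The 4 later large subunit factors act as the particle leaves the nucleolus. RLP24, a stand-in for a ribosomal protein that is exchanged in the cytoplasm, had 174, 165 and 154 CPM in S3, against 73.1, 107 and 102 CPM in H0. It was higher in every S3 library and was also the most abundant of the 4 per length, with a log2 fold change of 0.81 ± 0.14 (SE, adjusted p = 0.00128). NSA2 had 132, 122 and 121 CPM in S3, against 119, 172 and 170.4 CPM in H0, and did not pass at -0.30 ± 0.14 (SE, adjusted p = 0.0832). NOP53 was higher by 0.46 (adjusted p = 0.00407) and RIX1 did not pass at 0.36 (adjusted p = 0.101). The call on NOP53 was lost with total counts, at 0.13 (adjusted p = 0.245). UTP7, NOP16 and NSA2 are the 3 factors encoded on the synthetic chromosome itself, and none of them passed. Without H0 replicate 1, UTP7 and NSA2 were lower, at -0.39 and -0.46 (adjusted p = 0.000368 and 1.4e-05), and over the 17 alternatives they were lower in 6 and 5.

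Within a strain, most factors ranked the libraries alike. H0 replicate 1 had the lowest CPM of its strain for 60 of 60 factors, against 46.6% of all genes tested, and its log2 difference from the other H0 libraries had a median of -0.47. S3 replicate 3 was the lowest of its strain for 53 of 60 factors, against 36.1% of all genes. S3 replicate 1 was the highest for 51 of 60, against 34.2% of all genes. H0 replicates 2 and 3 shared the highest place, with 37 and 23 factors, against 26.4% and 31.8% of all genes. Summed over the 60, the CPM was 11410, 10760 and 10050 in S3, against 7216, 10090 and 10040 in H0. The S3 mean was 1.18 times the H0 mean, and 1.07 times that of H0 replicates 2 and 3 alone. S3 replicate 3 was thus below H0 replicate 2, and the strains overlapped in this sum. These sums use the TMM factors. Without the factors, the 60 took 1.015, 0.965 and 0.889% of all counts in S3, against 0.822, 1.128 and 1.117% in H0. By that measure every S3 library was below H0 replicates 2 and 3 and above H0 replicate 1.

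**Figure D3:**
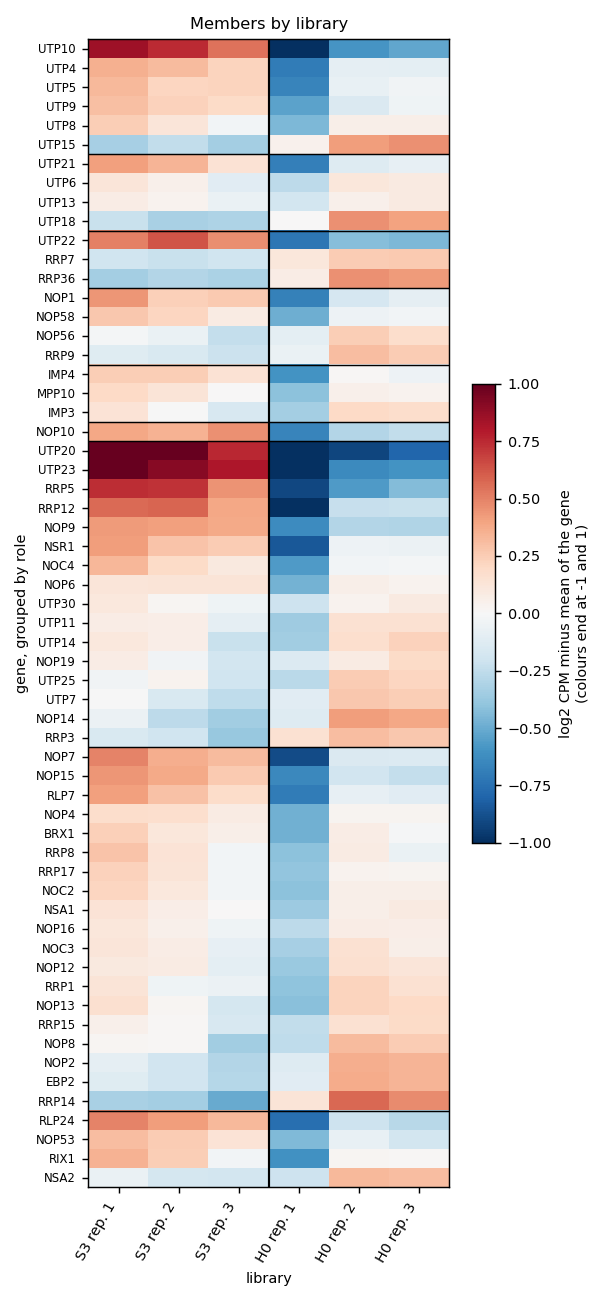
Log2 CPM of each factor in each library minus the mean of that gene over the 6 libraries, with red above and blue below it. The H0 replicate 1 column is the lowest of its strain for all 60 genes, and S3 replicate 3 is the lowest of its strain for 53.

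The same library stood apart for other genes of growth and stress. For 20 general stress genes such as heat shock and trehalose genes, the summed CPM was 22000, 23170 and 24630 in S3, against 13920, 7766 and 7803 in H0. H0 replicate 1 was the highest of its strain for 20 of 20, against 41.8% of all genes. The part of the stress genes in the values of the ribosome biogenesis factors was not tested. In S3, 15 of the 20 stress genes were higher and 0 lower with edgeR, and 16 and 0 with DESeq2, with a median log2 fold change of 1.39 and every value at or above 0.20. The 137 cytosolic ribosomal protein genes, whose products the factors assemble, summed to 158300, 154600 and 154100 CPM in S3, against 57220, 69770 and 71150 CPM in H0. Of these 135 were higher and 0 lower with both edgeR and DESeq2, the median log2 fold change was 1.21, the lowest value was -0.004 and 102 passed 2-fold with edgeR. By edgeR 34.2% of all genes were higher and 36.2% lower, and 10.7% were higher past 2-fold. With total counts 131 of the 137 were higher, 2 lower and 57 higher past 2-fold. In that fit 19.4% of all genes were higher and 57.6% lower. H0 replicate 1 was the lowest of its strain for 133 of the 137, against 46.6% of all genes. The sum was 2.36 times as high in S3 as in H0, and 2.21 times without H0 replicate 1, while the biogenesis factors gave 1.18 and 1.07. All these ratios are of TMM-scaled CPM and depend on that scaling. The PAC core was found in 10.2% of the ribosomal protein promoters and RRPE in 11.7%.

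**Figure D4:**
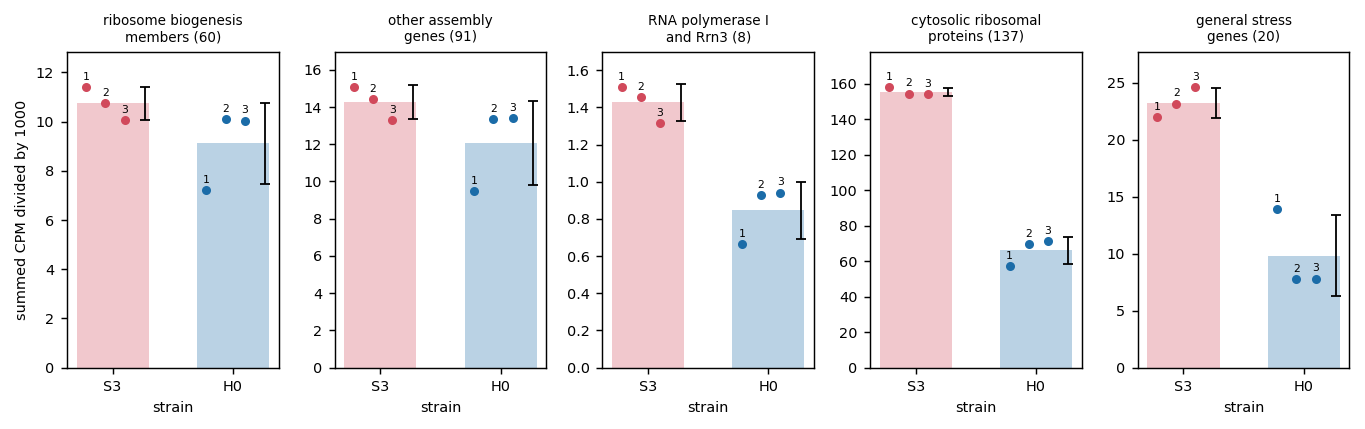
Summed CPM (axis divided by 1000) of 5 gene lists, with a bar for the mean of 3 libraries, an error bar for the SD and a numbered point for each replicate. The ribosome biogenesis factors and the 91 other assembly genes overlap between S3 and H0, whereas the polymerase I, ribosomal protein and stress genes do not.

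The rest of the pathway was read from a list of 91 other assembly genes. Of these 31 were higher in S3, 10 were lower and 50 did not pass, where 34.2% of all genes were higher and 36.2% lower. Their median log2 fold change was 0.28, and their summed TMM-scaled CPM was 1.18 times as high in S3 as in H0. Without H0 replicate 1, 40 were higher and 22 lower, where 38.3% and 39.9% of all genes were. With total counts 5 were higher and 20 lower, where 19.4% and 57.6% of all genes were. Without S3 replicate 1 or 2, 15 and 16 were higher, where 1855 and 1851 of the 5904 genes tested were. NAN1, the last UTPA gene, did not pass at 0.30 on the log2 scale (adjusted p = 0.114), nor did PWP2 and DIP2 of UTPB, at 0.35 and 0.05 (adjusted p = 0.0664 and 0.725). REA1, a giant ATPase that strips factors from the large subunit and is also called MDN1, averaged 365 ± 49.0 CPM in S3 and 107 ± 16.6 CPM in H0 (SD, n = 3 each), a log2 fold change of 1.76 (adjusted p = 2.98e-05 by edgeR). TSR1 and SLX9, both small subunit factors, followed at 1.17 and 0.98 (adjusted p = 9.59e-05 and 4.14e-05). BFR2, DBP6 and FCF1 had the furthest falls, at -0.85, -0.79 and -0.78 (adjusted p = 0.00105, 4.35e-05 and 3.57e-05).

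RNA polymerase I, which makes the precursor, had 4 of its 8 listed genes (the polymerase's subunits and Rrn3) higher and 1 lower. RPA190 and RPA135, its largest subunits, were higher by 1.66 and 1.41 on the log2 scale (adjusted p = 0.000123 and 0.000335), and RPA14 was lower by -0.75 (adjusted p = 3.55e-05). Among 14 genes of the nuclear exosome, which trims the precursor, 9 were higher and 2 lower. The share of all genes was 34.2% higher and 36.2% lower. With total counts 2 of the polymerase genes were higher and 2 lower, and 4 of the exosome genes were higher and 4 lower. In that fit 19.4% of all genes were higher and 57.6% lower.

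The longest factors were all higher in S3. The 3 factors of at least 4000 bases, UTP20 at 7482, UTP10 at 5310 and RRP5 at 5190, were all past 2-fold, while 8.47% of the 236 genes of that length were past 2-fold. The 2 factors between 3000 and 4000 bases, RRP12 and UTP22, were higher as well. Of the 2 other assembly genes of at least 4000 bases, REA1 at 14733 bases was past 2-fold and URB1 at 5295 bases did not pass, at 0.17. Of the 5 between 3000 and 4000 bases, 2 were higher and 0 were past 2-fold, and ECM16, MAK21 and URB2 did not pass, at 0.35, 0.08 and -0.02. The polymerase genes RPA190 and RPA135, of 4995 and 3612 bases, were past 2-fold. The other assembly genes named here were chosen by length, after their values were seen. UTP23, at 765 bases, was higher by 1.76 and is short. Over the 60 factors, Spearman's rho between length and log2 fold change was 0.17 and Pearson's r was 0.27, and over all genes they were -0.04 and -0.10. These describe genes of the same 6 libraries, which are not independent. With the trend over all genes removed, UTP20 had a log2 fold change of 1.76, UTP10 of 1.29, RRP5 of 1.15 and UTP22 of 0.99. Among the 60 factors, rho was then 0.167 and r 0.285, so this step did not remove a trend with length among them. The calls were 19 factors higher and 11 lower. In that fit 71.2% of all genes passed, 31.0% higher and 40.3% lower.

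**Figure D5:**
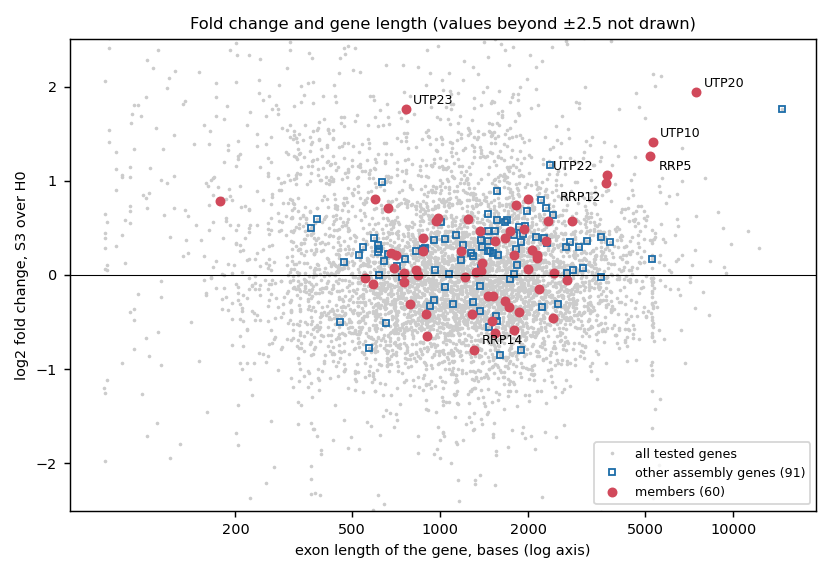
Log2 fold change of S3 over H0 against exon length in bases (log axis), with the ribosome biogenesis factors as filled points and the 91 other assembly genes as open squares over all tested genes in grey. UTP20, UTP10, RRP5, RRP12 and UTP22, all at least 3000 bases long, are above 0.9, and UTP23 is the short gene beside them.

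Of 7 regulators of these genes, 3 were higher in S3, 3 were lower and 1 did not pass. For comparison, 34.2% of all genes were higher and 36.2% lower. DOT6, a repressor that binds PAC, had 542, 490.2 and 513 CPM in S3, against 211, 176 and 185 CPM in H0, a log2 fold change of 1.43 (adjusted p = 8.79e-06). Its paralogue TOD6 had 95.4, 84.3 and 87.4 CPM in S3, against 74.6, 124 and 129 CPM in H0. TOD6 did not pass at -0.29 (adjusted p = 0.208), and without H0 replicate 1 its log2 fold change was -0.51 (adjusted p = 4.59e-05). STB3, which binds RRPE, had 142, 144 and 139 CPM in S3, against 203, 183 and 181 CPM in H0, and was lower by -0.41 (adjusted p = 0.000564). SFP1, an activator of ribosome biogenesis and ribosomal protein genes, was higher by 0.78 (adjusted p = 8.48e-05), and SCH9, the kinase of the nutrient pathway that acts on several of these factors, was lower by -0.82 (adjusted p = 2.4e-05). At the promoters of ribosomal protein genes, IFH1 was lower by -0.97 and FHL1 higher by 0.35 (adjusted p = 2.45e-05 and 0.00228). With total counts FHL1 had a log2 fold change of 0.02.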

How the data were processed

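Total RNA of 3 S3 and 3 H0 libraries was made into NEBNext Ultra libraries and sequenced on an Illumina instrument. The authors deposited counts of reads per gene without normalization, and FPKM values they computed from those counts. The submitters' processing notes name HTSeq 0.6.1 and DESeq 1.18.0, and the aligner, the genome build, the use of strand and the handling of reads that fit several genes are not given in the sources used here. The R64 gene table held 6436 of the 6442 gene identifiers. The length implied by count and FPKM was the R64 exon length (within 0.5 bases) in 99.9% of genes and in all 60 ribosome biogenesis factors, so R64 was used for names, lengths and promoters. The 6 unmatched identifiers took at most 0.012% of a library's counts and stayed in the tests. No column of values was left out.

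The quasi-likelihood test of edgeR 4.0.16 (R 4.3.3) was run on the counts with TMM factors and no block, on the 5904 genes kept by filterByExpr. Calls needed a Benjamini-Hochberg adjusted p under 0.05 over these genes. CPM used TMM-scaled library sizes, and standard errors came from the same model. The fit was run on simulated counts with known changes in a small part of the genes and no library apart. That run does not bear on the choice of scaling or on H0 replicate 1. Similar genes were sought with BLAST 2.17.0 and gene models that overlap a factor were looked for, with none found. The 17 alternatives were other scalings, filters and tools (DESeq2 1.42.0, limma 3.58.1 with voom or on log2 FPKM plus 1 or 0.1), a replicate block, each library left out, and removal of a trend with gene length (loess span 0.4).

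Genes and lists were chosen with earlier results of these data known. By a fixed rule, values of every library are given for the factors with the largest and smallest log2 fold change and the highest mean FPKM in each role group and for those past 2-fold, every factor that did not pass is named with its log2 fold change, and of the other assembly genes NAN1, PWP2, DIP2 and the 3 largest rises and falls are named. All 7 regulators are named, and VAC8 is the check of which libraries carry the deletion. The 3 polymerase genes were picked with their values in view.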

Additional observations from a re-analysis of the deposited data

How the results depend on the processing

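No call on a ribosome biogenesis factor turned its direction under any of the 17 alternatives. DESeq2's Wald test, DESeq2's size factors, limma-voom, no filter on low counts and a mean of at least 100 counts gave the same 22 higher and 10 lower factors. Scaling by total counts gave 10 higher, 22 lower, 3 higher past 2-fold and 1 lower past 2-fold, and limma on log2(FPKM + 1) and on log2(FPKM + 0.1), which carry the same scaling, both gave 10 higher, 21 lower, 3 and 1. Of the other assembly genes, each of these 3 settings called 5 higher and 20 lower. Among the 5904 genes tested, they called 1143 to 1147 higher and 3382 to 3401 lower. Leaving out a library gave 17 to 23 higher factors and 6 to 20 lower ones, and 15 to 40 higher and 8 to 22 lower of the other assembly genes, with the largest counts without H0 replicate 1. Over all genes of the main test, 1851 to 2257 were then higher and 1903 to 2360 lower, again most without H0 replicate 1. Without H0 replicate 2 or 3, or S3 replicate 2 or 3, 6 factors were lower. Upper quartile factors gave 21 higher and 13 lower, where 1894 and 2286 of the 5904 genes tested were. Removal of the length trend, an alternative chosen after seeing the data, gave 19 higher, 11 lower and 4 past 2-fold. There 31.0% of all genes were higher and 40.3% lower. The replicate numbers did not pair the libraries (correlations of deviations of same-numbered libraries were -0.007, 0.077 and 0.077), and a fit with the number as a replicate block gave 20 higher and 8 lower, without NOP58, NOP14, NOC4 and NOP2. That fit called 1950 of the 5904 genes tested higher and 2048 lower. The cause of these differences was not tested. Every factor had at least 430 reads in each library, and 3 libraries per strain, with H0 replicate 1 apart, leave small changes undecided.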
